A study of Homo sapiens with 24 samples.

Results

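The GINS complex, encoded by GINS1, GINS2, GINS3 and GINS4, and its partner CDC45 were followed as a group of 5 genes. The members were found as every probe whose RefSeq accession maps to one of these genes, which gave 5 of the 50599 probes on the array used at 24 h and the same 5 of the 58201 probes on the array used at 48 h, 1 for each gene. The 2 arrays together named 22692 genes through RefSeq. RNA came from LNCaP cells, an established line from a lymph node metastasis of prostate cancer, transfected by electroporation with an siRNA against the lncRNA TAPIR-1 (si-A1), an siRNA against the lncRNA TAPIR-2 (si-A2) or a scrambled negative control duplex (scramble). Each siRNA had 4 biological replicates per time point, taken 24 h and 48 h after transfection, and a separate one-colour Agilent array was used for every one of the 24 samples, with a different array version at each time. All groups were transfected, 1 siRNA stood for each lncRNA, and 1 cell line was used, so the comparisons cannot separate an effect of losing a lncRNA from any other effect of its siRNA. The si-A2 replicate 2 array of 48 h had low intensities and was left out, so that the 48 h fit held 11 arrays.

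Replication of DNA starts when a ring of MCM proteins, loaded on the DNA in an inactive form, is joined by CDC45 and by the GINS tetramer. The joined assembly, called the CMG helicase from the initials of CDC45, MCM and GINS, unwinds the double helix and travels with the fork together with the leading-strand polymerase. GINS1 (also PSF1), GINS2 (PSF2), GINS3 (PSF3) and GINS4 (SLD5) form the tetramer, and CDC45 binds the side of the ring together with it. The genes are transcribed mainly in proliferating cells, so their mRNA is commonly read alongside other genes of the G1 and S phases.

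KLK3, the prostate-specific antigen that LNCaP cells make, was above background on every array used. Its median was 10.88 at 24 h and 10.96 at 48 h (log2). At 24 h, 45214 of the 50599 probes passed the background threshold on 3 or more arrays. Passing it therefore does not by itself show that a gene was expressed. Of 7 genes of other cell types (PTPRC, CD3E, COL1A1, COL3A1, PECAM1, KRT5 and TP63), 5 were above the background threshold on every array at 24 h and 3 at 48 h, with medians between 1.72 and 6.95 and between 1.1 and 6.76 (log2). KRT5 exceeded the threshold on 1 of 12 arrays at 24 h and on 0 of 11 at 48 h. The probe of TAPIR-2 at 24 h had log2 intensities of 5.09, 4.99, 5.25 and 4.81 in scramble, and of 4.71, 3.12, 4.61 and 3.82 in si-A2, with no overlap, while si-A1 had 4.64 ± 0.32 against 5.04 ± 0.18 in scramble (SD, n = 4). At 48 h the same probe gave 4.64 ± 0.59 (n = 4) in scramble, 4.82 ± 0.81 (n = 4) in si-A1 and 4.69 ± 0.90 (n = 3) in si-A2. A further TAPIR-2 probe of the 48 h array, above the background threshold on 4 arrays, gave 2.52 ± 0.76, 1.75 ± 0.59 and 2.00 ± 0.88 in that order, with overlap. No probe matched TAPIR-1, so the siRNA names are those of the labels. Array medians of the intensity ran from 24.4 to 57.2 at 24 h and from 20.4 to 32.2 at 48 h.

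On GRCh38.p14, GINS2 and GINS3 both lie on chromosome 16 (GINS2 at 85676198 to 85688954, GINS3 at 58392471 to 58406147), GINS1 lies on chromosome 20 at 25407673 to 25448563, and CDC45 lies on chromosome 22 at 19479466 to 19520612. The RefSeq sequences before the starts of GINS2, GINS3 and CDC45 are given here, the 3 members called lower at 24 h in the tests below. Each is on the strand of the gene (GINS2 on the minus strand, the others on the plus strand), from 180 bases before a start to 20 after it. Capitals mark matches on either strand to letters that E2F factors bind (TTTCCCGC, TTTCGCGC, TTTGCCGC or TTTGGCGC) or to CCAAT, the letters bound by NF-Y. None of the motifs contains another. GINS2 is chr16:85688935-85689134, GINS3 is chr16:58392291-58392490, and CDC45 is chr22:19479740-19479939, the last of the 3 start sites listed for that gene.
GINS2: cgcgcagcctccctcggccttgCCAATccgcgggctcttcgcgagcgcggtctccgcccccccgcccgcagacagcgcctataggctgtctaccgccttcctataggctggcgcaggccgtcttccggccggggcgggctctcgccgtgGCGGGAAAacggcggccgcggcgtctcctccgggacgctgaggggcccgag
GINS3: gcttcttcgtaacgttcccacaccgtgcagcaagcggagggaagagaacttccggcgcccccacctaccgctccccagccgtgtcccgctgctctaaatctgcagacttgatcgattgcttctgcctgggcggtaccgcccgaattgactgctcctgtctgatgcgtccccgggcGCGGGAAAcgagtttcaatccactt
CDC45: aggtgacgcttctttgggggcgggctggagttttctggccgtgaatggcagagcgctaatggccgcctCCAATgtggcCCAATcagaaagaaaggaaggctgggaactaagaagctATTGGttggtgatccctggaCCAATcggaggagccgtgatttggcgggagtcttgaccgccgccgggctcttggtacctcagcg
GINS2 and GINS3 each held TTTCCCGC on the opposite strand, at bases -31 to -24 and -5 to 3 from the start. In windows of 250 bases before to 50 after a start, one of the 4 E2F motifs was present in 3.31% of 35116 RefSeq windows, and GINS1 also held one (TTTGGCGC, bases 6 to 13). None of the 3 CDC45 windows held any of these letters, while the one printed held CCAAT 4 times, a motif present in 34.6% of windows. CCAAT was absent from the window of the CDC45 start at 19479466. TTTGAA and TTCGAA, the letters of the CHR element, were in none of the windows of GINS1, GINS2, GINS3 and CDC45 and in 16.4% of all, and no window of GINS4 was analysed here. These matches are descriptions of the sequence. Only exact matches to the letters given were searched, so a site spelled otherwise is not marked or counted.

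The question at 24 h was whether either siRNA changed the mRNAs of the helicase parts. After si-A1, GINS2, GINS3 and CDC45 were lower than in scramble, and after si-A2 the same 3 genes were lower. The siRNA and scramble arrays did not overlap for these 3, nor for GINS4, which did not pass the test. How often all probes showed no overlap was not counted, so non-overlap here and below only describes the values. A probe was called at an adjusted p below 0.01 (limma, Benjamini-Hochberg over all probes tested) and a log2 fold change of 0.5 or more in size. Of the 4 members tested, 3 were called lower after si-A1, against 1.01% of the 45214 probes tested, and 3 after si-A2, against 0.843%. The median log2 fold change of the 4 was -2.14 for si-A1 and -2.40 for si-A2, while the median of all probes was 0.0474 and 0.0432. Both comparisons use the same scramble arrays. Total RNA of a culture was measured, so fewer cells expressing a gene and less RNA per cell cannot be told apart.

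**Figure D1:**
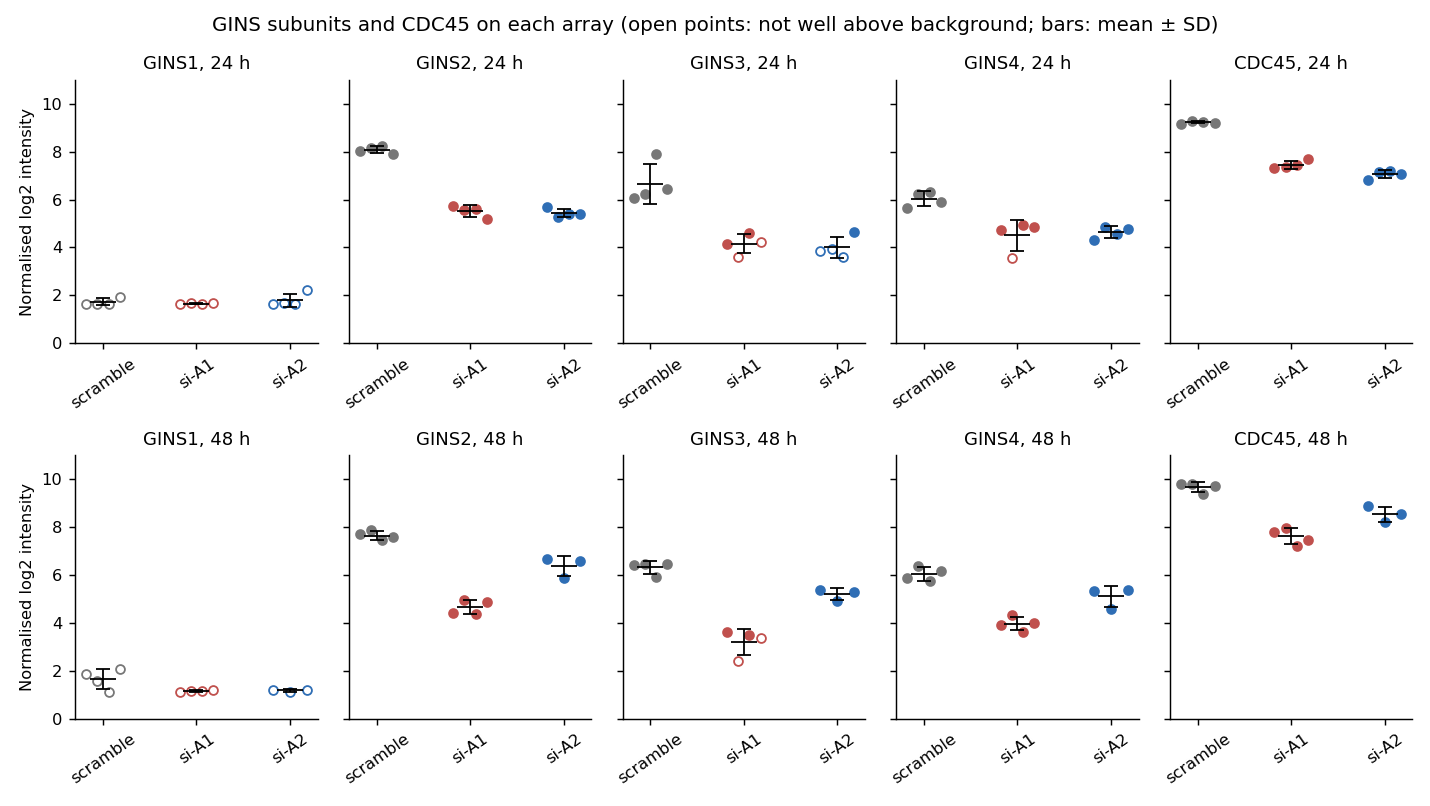
Normalised log2 intensity of each member on every array used, by siRNA, at 24 h (top) and 48 h (bottom), with 4 arrays a group and 3 for si-A2 at 48 h. Bars are the mean ± SD and open points were not well above background. GINS2, GINS3, GINS4 and CDC45 separate the siRNA groups from scramble at both times, and GINS1 lies between 1.12 and 2.21 on every array.

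GINS2, the tetramer subunit also called PSF2, had log2 intensities of 8.04, 8.16, 8.23 and 7.88 in scramble at 24 h. The si-A1 arrays gave 5.75, 5.55, 5.62 and 5.19, and the si-A2 arrays 5.68, 5.29, 5.41 and 5.41. Every siRNA array therefore lay at least 2 log2 units below the lowest scramble array. The fold change was -2.55 ± 0.15 (SE, log2) for si-A1, with an adjusted p of 2.12e-05, and -2.63 ± 0.15 for si-A2, with an adjusted p of 1.33e-05. GINS2 was thus at 17.1% of scramble after si-A1 (95% interval 13.6 to 21.6%) and at 16.2% after si-A2 (12.8 to 20.4%). The size depended on the treatment of background: with normexp correction of the median signal the fold changes were -1.59 and -1.62, or 33.2% and 32.5% of scramble, and both calls were kept. The array carries this probe 10 times, and the SD over its spots within an array had a median of 0.108 at 24 h, below the SD between replicates of each group.

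GINS3 had values of 6.08, 6.23, 7.89 and 6.43 in scramble at 24 h, where replicate 3 stood above the others. It was 4.16, 3.62, 4.62 and 4.24 after si-A1, and 3.86, 3.94, 3.60 and 4.63 after si-A2. Both siRNA groups lay below all scramble arrays. The log2 fold change was -2.50 ± 0.33 for si-A1 (adjusted p = 0.00242) and -2.65 ± 0.33 for si-A2 (adjusted p = 0.00164), and -2.15 and -2.30 without scramble replicate 3. Only 2 of 4 si-A1 arrays and 1 of 4 si-A2 arrays had this probe well above background, so the size of the decrease depends on how background is treated: with normexp correction of the median signal it was -1.03 for both, and the adjusted p rose to 0.0109 and 0.0131. The si-A1 call was also lost without si-A1 replicate 2 (adjusted p = 0.0130) or replicate 4 (0.0121). Over all alternatives the adjusted p of GINS3 lay between 0.00053 and 0.0143 for si-A1 and between 0.000345 and 0.0191 for si-A2.

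CDC45, the helicase cofactor, varied little between replicates at 24 h. Scramble arrays had log2 intensities of 9.17, 9.28, 9.25 and 9.20, si-A1 arrays 7.33, 7.34, 7.44 and 7.68, and si-A2 arrays 6.83, 7.16, 7.21 and 7.06. The 3 groups did not overlap, with si-A2 lowest. The log2 fold change was -1.78 ± 0.13 for si-A1 (adjusted p = 5.53e-05) and -2.16 ± 0.13 for si-A2 (adjusted p = 1.33e-05), which left 29.1% and 22.3% of the scramble level. With normexp correction 36.1% and 29.9% were left, and both calls were kept. By p, CDC45 was ranked 23 of 45214 probes for si-A1 and 13 for si-A2, and GINS2 was ranked 11 in both.

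GINS4, the counterpart of yeast Sld5, lies on chromosome 8 at 41529261 to 41545030 (GRCh38.p14). It was 5.66, 6.24, 6.32 and 5.89 in scramble at 24 h, 4.71, 3.56, 4.93 and 4.85 after si-A1, and 4.32, 4.87, 4.57 and 4.77 after si-A2. All siRNA arrays lay below all scramble arrays. The log2 fold change was -1.52 (95% interval -2.12 to -0.92) for si-A1, and for si-A2 it was -1.40 (-2.0 to -0.80), but the adjusted p of 0.0145 and 0.0272 did not pass the threshold. With normexp correction both estimates were -0.57 (67.4% of scramble), and with no background correction both were -0.59, and all 4 of these values passed the test. With probes filtered on Agilent's well above background flag instead, the same estimates had adjusted p of 0.00431 and 0.00898, and over all alternatives the values ran from 0.00272 to 0.0667 and from 0.00313 to 0.0992. GINS1 could not be followed. Its probe was at 1.73 ± 0.15 in scramble, 1.65 ± 0.03 after si-A1 and 1.79 ± 0.28 after si-A2 (SD, n = 4), was never well above background at either time, and exceeded the background threshold on 0 arrays, so it was not tested.

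The siRNAs were next set against each other. At 24 h, none of the 4 members was called between si-A2 and si-A1, a comparison in which 0.361% of probes were called. The difference, si-A2 minus si-A1 on the log2 scale, was -0.08 for GINS2 (95% interval -0.41 to 0.26), -0.15 for GINS3 (-0.89 to 0.58), 0.12 for GINS4 (-0.48 to 0.72) and -0.38 for CDC45 (-0.66 to -0.10). CDC45 had an unadjusted p of 0.0117 and an adjusted p of 0.224. The intervals leave room for differences of more than 0.5 in GINS3, GINS4 and CDC45, so the result does not show equal effects.

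At 48 h the estimated effects on the tested members were larger in size after si-A1 than after si-A2. After si-A1 all 4 tested members were called lower, in a comparison where 3.84% of the 45824 probes tested were called lower, and their median log2 fold change was -2.53 against 0.0517 for all probes. After si-A2, CDC45 alone of the 4 was called lower, against 0.334% of probes, and the median was -1.08 against 0.00904. That CDC45 stood alone depended on the treatment of background. With normexp correction, and with no background correction, GINS2 and GINS3 were called lower after si-A2 as well. Same-numbered samples deviated together at 48 h, and with the replicate number as a block the CDC45 call after si-A2 was lost (adjusted p = 0.0181). With that block si-A1 had 1729 probes called in place of 2725, and si-A2 had 0 in place of 181.

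**Figure D2:**
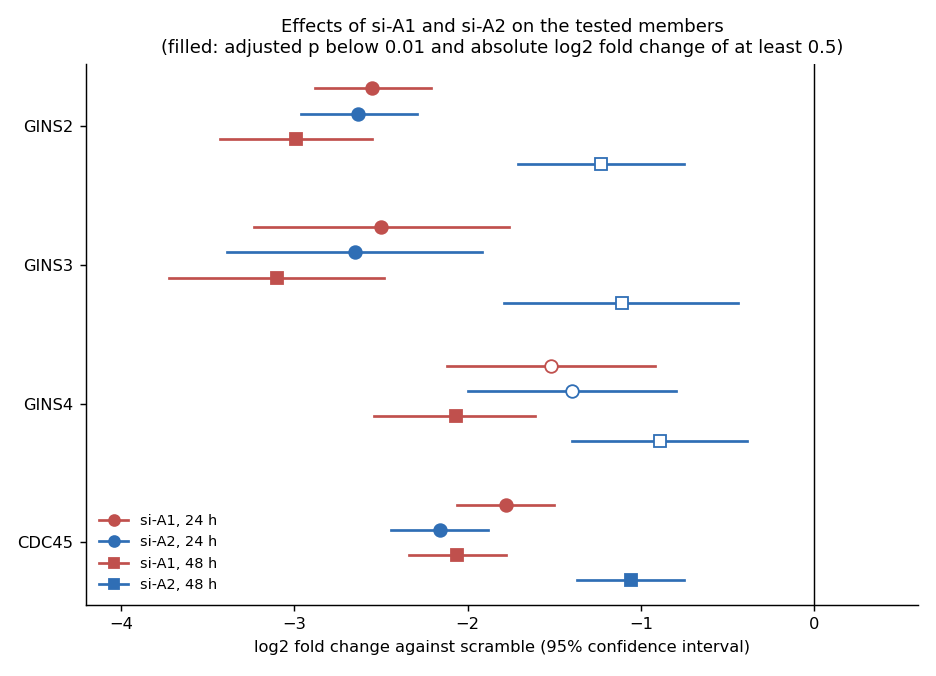
log2 fold change against scramble of the 4 tested members (x axis) with 95% confidence intervals, for si-A1 and si-A2 at 24 h (circles) and 48 h (squares). Filled symbols passed the threshold. All 16 intervals lie below 0, and the si-A2 estimates at 48 h, from -1.23 to -0.89, are the nearest to 0 for each gene.

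GINS2 at 48 h was 7.72, 7.87, 7.45 and 7.59 in scramble, 4.43, 4.95, 4.39 and 4.89 after si-A1, and 6.66, 5.90 and 6.61 after si-A2. The si-A2 arrays lay between the other groups, with no overlap on either side. GINS2 fell by 2.99 ± 0.19 on the log2 scale after si-A1 (adjusted p = 5.66e-05), to 12.5% of scramble, while the estimate was -1.6 (33.0% of scramble) with normexp correction and -1.93 with no background correction, both called. After si-A2 it was at -1.23 (95% interval -1.71 to -0.75), 42.6% of scramble, with an adjusted p of 0.0225. Normexp correction gave -0.81, which was called (adjusted p = 0.000639). With the filter on the well above background flag the adjusted p after si-A2 was 0.00729, and it ran from 0.000455 to 0.465 over the alternatives.

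GINS3 at 48 h was 6.44, 6.48, 5.91 and 6.48 in scramble, 3.63, 2.42, 3.50 and 3.36 after si-A1, and 5.39, 4.93 and 5.30 after si-A2. The order of the groups was the same as for GINS2, again without overlap. The log2 fold change after si-A1 was -3.10 ± 0.27 (adjusted p = 0.000182), the lowest estimate of the members, although only 2 of the 4 si-A1 arrays had the probe well above background and the estimate was -0.96 with normexp correction. For si-A2 the estimate was -1.11 (95% interval -1.79 to -0.44, adjusted p = 0.0963). It was called with normexp correction (-0.53, adjusted p = 0.00238) and with no background correction (-0.63, adjusted p = 0.00297).

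CDC45 at 48 h was 9.80, 9.79, 9.40 and 9.74 in scramble, 7.81, 7.98, 7.24 and 7.45 after si-A1, and 8.87, 8.24 and 8.55 after si-A2. No si-A2 array reached a scramble array or fell to a si-A1 array. The log2 fold change was -2.06 ± 0.12 for si-A1 (adjusted p = 5.62e-05) and -1.06 ± 0.14 for si-A2 (adjusted p = 0.00854), leaving 23.9% and 48.0% of scramble. With normexp correction 30.1% and 52.1% were left. The si-A2 call stood near the threshold. It was lost when any of the 11 arrays was left out (adjusted p between 0.0156 and 0.0395), it was lost when control spots marked as outliers were left out of the background threshold (0.0116), and it was held under 9 of 16 settings, with adjusted p between 0.00012 and 0.465 over all alternatives and an estimate below 0 in all of them.

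GINS4 at 48 h was 5.90, 6.40, 5.75 and 6.16 in scramble and 3.94, 4.33, 3.64 and 4.01 after si-A1, with 5.34, 4.61 and 5.40 after si-A2. The 3 si-A2 values lay above all si-A1 values and below all scramble values. The si-A1 fold change of -2.07 ± 0.20 (log2, adjusted p = 0.000326) passed the test, also with normexp correction, where it was -0.80, and the si-A2 value of -0.89 (95% interval -1.40 to -0.39) did not (adjusted p = 0.0776). GINS1 stayed near background, at 1.68 ± 0.41 in scramble (n = 4), 1.16 ± 0.03 after si-A1 (n = 4) and 1.19 ± 0.04 after si-A2 (n = 3).

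When the siRNAs were compared directly at 48 h, GINS2, GINS3 and CDC45 had higher values in si-A2 than in si-A1, so 3 of 4 tested members were called, against 1.40% of all probes in either direction. The difference was 1.76 (95% interval 1.28 to 2.24, adjusted p = 0.00353) for GINS2, 1.98 (1.31 to 2.66, adjusted p = 0.00817) for GINS3 and 1.00 (0.70 to 1.31, adjusted p = 0.00517) for CDC45. GINS4 differed by 1.18 (0.67 to 1.68) and was not called (adjusted p = 0.0208). On the linear scale, the si-A2 level was 340% of the si-A1 level for GINS2 and 200% for CDC45. With normexp correction the differences were smaller, at 0.79 for GINS2 (173% of si-A1), 0.42 for GINS3, 0.40 for GINS4 and 0.79 for CDC45, and GINS3 was under the fold threshold. With no background correction they were 1.00, 0.60, 0.54 and 0.86, and all 4 were called. With the replicate block, GINS3 (adjusted p = 0.0209) and CDC45 (0.01, just over the threshold) were no longer called, GINS4 was called (0.00784), and the number of probes called went from 642 to 235.

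These 3 calls depended on single arrays. GINS2 lost its call without si-A2 replicate 1 (adjusted p = 0.0330), si-A2 replicate 4 (0.0159), si-A1 replicate 2 (0.0107) or si-A1 replicate 3 (0.0154). GINS3 held its call in 2 of the 11 fits with 1 array left out (adjusted p up to 0.0624 without si-A2 replicate 1) and CDC45 in 4 of 11 (up to 0.0429 without si-A2 replicate 1). GINS3 was also not called with a background threshold that left out control spots marked as outliers (0.0101). With only the 2 groups compared in the fit, all 3 calls were lost (limma adjusted p = 0.0316 for GINS2, 0.043 for GINS3 and 0.0226 for CDC45). In the fits with 1 array left out the direction stayed the same, with differences of 1.61 to 1.98 for GINS2, 1.71 to 2.14 for GINS3 and 0.93 to 1.09 for CDC45. With the low-intensity si-A2 array included, none of the 4 was called, and the differences were 1.15, 1.67 and 0.17 in the same order.

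Whether the effect of an siRNA changed between the time points was tested as an interaction over 23 arrays and the 36285 probes above background on both array versions. For si-A1 no member was called, against 0.157% of probes, and the change in effect from 24 h to 48 h was -0.47 for GINS2 (95% interval -0.98 to 0.03), -0.27 for GINS3, -0.37 for GINS4 and -0.25 for CDC45 (unadjusted limma p from 0.0641 to 0.556). For si-A2 no member was called either, against 0.0331% of probes, but the estimates were above 0: 1.36 for GINS2 (0.84 to 1.89), 1.70 for GINS3 (0.71 to 2.70), 0.57 for GINS4 (-0.26 to 1.40) and 1.13 for CDC45 (0.77 to 1.49). Their adjusted p were 0.0442, 0.286, 0.814 and 0.0107, and their unadjusted p 3.84e-05, 0.00208, 0.164 and 3.96e-06. With normexp correction the estimates were 0.75, 0.49, 0.16 and 0.81 in that order, and CDC45 passed (adjusted p = 0.0058). It also passed without scramble 48 h replicate 4 (0.00488) or without si-A2 48 h replicate 3 (0.00715), where GINS2 passed too (0.00743). The array version changed with the time point, so version and time cannot be told apart in these values.

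**Figure D3:**
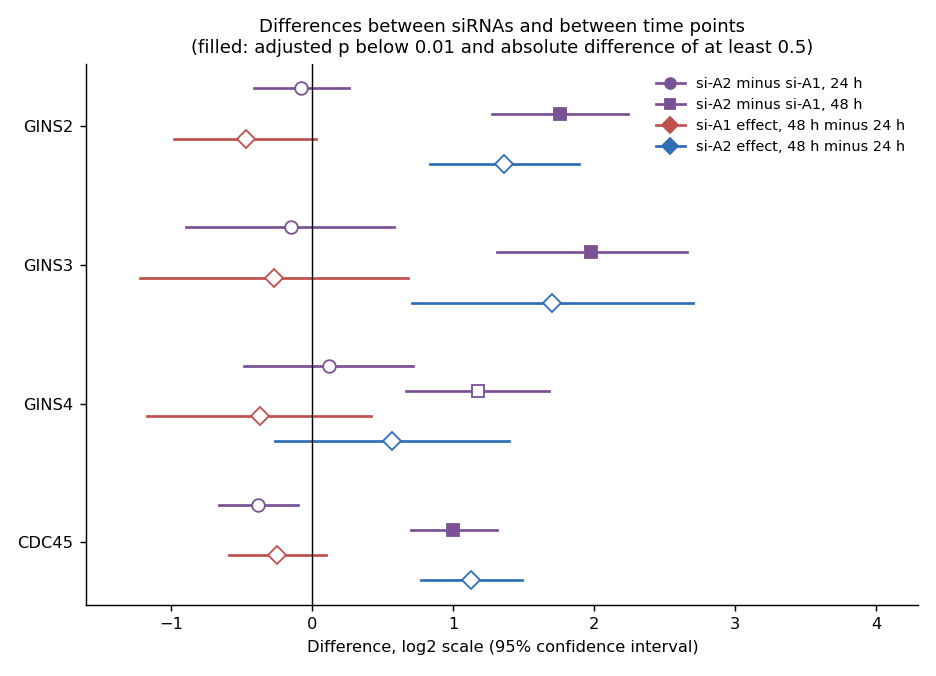
Differences on the log2 scale (x axis) with 95% confidence intervals for the 4 tested members, between si-A2 and si-A1 at 24 h and 48 h, and between the 48 h and the 24 h effect of each siRNA. Filled symbols passed the threshold. The si-A2 minus si-A1 differences at 24 h lie between -0.38 and 0.12, and those at 48 h between 1.00 and 1.98.

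The members also differed from one another in the size of their changes, in a way that depended on the treatment of background. Over the 4 effects (each siRNA against scramble at each time), GINS2 and GINS3 were closest in the processed signal, with a root mean square difference of 0.0827 on the log2 scale, and of 17940 other genes measured on both array versions GINS3 was the nearest to GINS2. GINS4 had smaller effects than GINS2 and stood 0.94 away from it, at place 147. CDC45 stood 0.652 from GINS2 and 0.413 from GINS4. With normexp correction GINS2 and GINS3 stood 0.535 apart, GINS2 and CDC45 were the closest pair (0.123), and GINS4 was nearer to GINS3 (0.341) than to CDC45 (0.909). The effects share their scramble arrays, so this likeness describes profiles and was not tested. In the processed signal, and apart from GINS3, the genes nearest to GINS2 were the histone genes H3C7 (0.135) and H3C4 (0.204), whose proteins package new DNA, and BLM (0.215), a helicase of DNA repair. Nearest to GINS3 apart from GINS2 were H3C7 (0.158), the origin recognition subunit ORC6 (0.2) and H3C10 (0.242). CDC45 was nearest to MCM2 (0.137) and MCM5 (0.141), which form part of the ring it joins, and to the checkpoint kinase CHEK1 (0.179), and GINS4 to FANCG (0.0831), the clamp loader subunit RFC4 (0.11) and CEP128 (0.113). Histone genes are near copies of one another, and their probes may share signal.

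The other proteins of the helicase and its surroundings were followed with a list of 27 genes, all above background, with 1 probe each (the same at both times for 25 of them, but not for POLE and RECQL4). At 24 h, si-A1 had 14 of the 27 called lower, against 1.01% of all probes, and si-A2 had 12, against 0.843%. At 48 h the counts were 22 for si-A1, against 3.84%, and 2 for si-A2, against 0.334%. With the replicate block at 48 h they were 19 and 0. None was called higher than in scramble. All partner values are from the processed signal, and no other treatment of background was run for them. The median log2 fold change of the list was -0.96, -1.14, -1.34 and -0.82 in that order, and its values reached from -4.76 to 0.18. Set directly against si-A1 at 48 h, 8 of the 27 were called higher after si-A2 and none lower, against 1.40% of probes in either direction, and with the replicate block LRR1 and DONSON dropped out, which left 6.

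The 6 genes of the ring itself (MCM2, MCM3, MCM4, MCM5, MCM6 and MCM7) were all called lower at 24 h after both siRNAs, with values between -2.01 and -1.44 for si-A1 and between -2.29 and -1.46 for si-A2. At 48 h all 6 were called lower after si-A1 (-2.56 to -1.30) and none after si-A2 (-1.16 to -0.84). MCM4 had the strongest ring effect in both 24 h comparisons, at -2.01 and -2.29. MCM3, MCM4, MCM5 and MCM6 were called higher in si-A2 than in si-A1 at 48 h, by 1.19, 1.53, 1.36 and 1.05.

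Among the genes that load and activate the ring, MCM10 (-2.60 after si-A1 and -2.90 after si-A2 at 24 h), TICRR, which brings CDC45 to origins (-1.85 and -2.54), and DONSON (-1.04 and -1.14), which helps place GINS, were called lower at 24 h after both siRNAs. After si-A1 at 48 h, 6 of these 8 were called lower, with TICRR at -3.41 and DONSON at -2.65. The kinase subunit DBF4 was the one called after si-A2 at 48 h (-0.98, adjusted p = 0.00874), and that call was lost with the replicate block (0.0265). TICRR and DONSON were called higher in si-A2 than in si-A1 at 48 h, by 2.42 and 1.83, the latter not with the block (0.0126). RECQL4 had values of 0.15 and 0.16 at 48 h and, on another probe, of -0.75 and -0.78 at 24 h, none of them called. The probe of 24 h was above background at both times. On it the effect changed from 24 h to 48 h by -0.82 for si-A1 (95% interval -1.37 to -0.26) and by 0.05 for si-A2, neither called. The values near 0 at 48 h therefore hold for the other RECQL4 probe only.

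Of the 9 genes that travel with the fork, CLSPN, the adaptor of the replication checkpoint, had the lowest values at 24 h (-3.72 after si-A1 and -4.76 after si-A2), and it was at -3.16 and -1.09 at 48 h. The last of these 4 values was not called. POLE2, a polymerase epsilon subunit that binds GINS, was called at -2.02 and -2.57 at 24 h, while POLE4, another subunit, stayed between -0.11 and 0.18 in all 4 comparisons, and POLE was at 0.08 and -0.15 at 24 h. On another probe POLE was at -0.47 (adjusted p = 0.00574, but under the fold threshold) and -0.38 at 48 h. Of the 4 genes that unload the helicase, LRR1 was called after si-A1 at both times (-1.16 and -1.57), FAF1 after both siRNAs at 48 h (-0.69 and -0.73, the latter not with the replicate block, where its adjusted p was 0.022), and UBXN7 lay between -0.14 and 0.16 throughout.

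**Figure D4:**
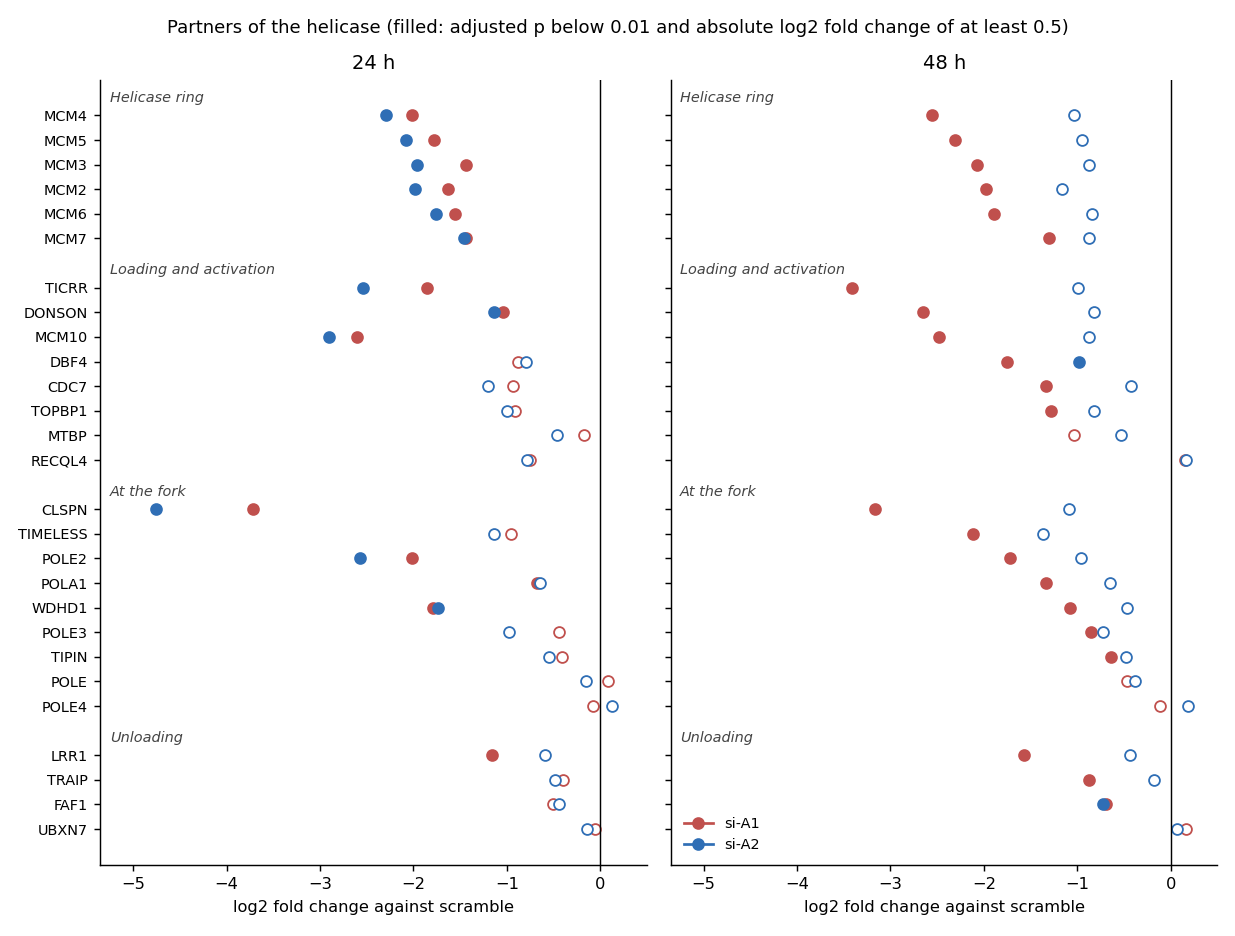
log2 fold change against scramble (x axis) of the 27 partner genes at 24 h (left) and 48 h (right), grouped by role, for si-A1 and si-A2. Filled points passed the threshold. At 48 h, 22 si-A1 points and 2 si-A2 points are filled.

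The nearest edge of the gene UFD1 lies 273 bases before the first base of CDC45 on chromosome 22, so UFD1 was followed as a neighbour. LOC105372581, near the start of GINS1, and LOC124903740, near that of GINS2, met the same rule, but no tested probe was matched to them. The 2 probes of UFD1 were at 0.02 and -0.18 after si-A1 and at -0.01 and -0.33 after si-A2 at 24 h. At 48 h they were at -0.43 and -0.35 after si-A1 and at -0.34 and -0.25 after si-A2. None of the 8 values was called, and the lowest adjusted p was 0.0158, next to CDC45 values of -1.06 or below in the same comparisons.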

How the data were processed

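RNA of 24 LNCaP samples (3 siRNAs, 2 time points, 4 replicates) was measured on one-colour Agilent arrays. The authors deposited the Agilent Feature Extraction 11.5.1.1 output of each array, whose processed intensity is linear and background-subtracted, with no normalization between arrays, and the median intensity of each spot and its surroundings. They also deposited log2 values per time point, which are quantile-normalized over all spots and served as an alternative. The submitters' processing notes name R 3.4.3 and limma 3.34.8. Samples were grouped by the siRNA, time and replicate of their labels, and the slide (2 per time point) was read from the scanner output.

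The log2 processed intensities were quantile-normalized within a time point without control spots, spots marked as outliers were set aside, and repeated spots were averaged. Probes were named through RefSeq (29033 probes on the 24 h array, 31104 on the 48 h array). Tested was a probe when, on 3 or more arrays, it lay over the mean of the 308 negative controls by 3 SDs (45214 and 45824 probes). All groups of a time point entered 1 fit in limma 3.58.1 (R 4.3.3, with statmod 1.5.0) with an additive slide term, and adjusted p-values are those of limma. The interquartile range filter of the study's methods was an alternative, so that a member was tested whether or not it varied. The interaction was fitted to both time points normalized together. The fit was also run on simulated data with independent noise and a slide shift. That noise was not linked by replicate number, so the run does not bear on the shared deviations at 48 h.

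The scale of the background threshold, and whether control spots marked as outliers enter it, were settled after member values had been seen under 2 other definitions. The log2 scale with all control spots was taken, since the fit is on that scale and the methods name all negative controls. Both other definitions are given as alternatives, and under one of them 2 member calls at 48 h are lost. The members, the list of partners and the motifs were chosen with earlier results of these data known. Named are the members, close neighbours, the partners with the 3 largest called changes in either direction or with values below 0.2 in size after both siRNAs, and the 3 genes most like each member. Other partners named (the rest of the ring, POLE2, DBF4, LRR1 and FAF1) were chosen after their values were seen. The annotation used gives no strand for every neighbour, so a neighbour was taken as a gene whose nearest edge lies within 1000 bases of a member's start. The mean signal planned for 2 background alternatives was replaced by the median signal. The probe of a partner is the brightest at each time point. The replicate block for partners and normexp for the likeness of members were added after seeing the data.

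At 48 h the correlation of deviations from the group means was between 0.18 and 0.34 in all 10 same-numbered pairs. In the 30 other pairs of different groups it ran from -0.32 to 0.28 and was over 0.1 in 9. Same-numbered arrays also share a slide, so these values do not separate pairing from slide. The fit reported has a slide term, and the replicate block is an alternative. At 24 h the correlation was over 0.1 in 3 of 12 same-numbered pairs, and the numbers were not taken as pairs. The number of arrays and the signal over background limit precision: the median residual SD of a tested probe was 0.327 at 24 h and 0.236 at 48 h (log2). Results for some genes are left out.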

Additional observations from a re-analysis of the deposited data

Results flagged for a closer look

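In groups of 4 arrays, 5 of 25 had one array far from its group by Dixon's criterion (the gap to the nearest array as a share of the group's range). Chance gives about 1 in 20 for independent groups. The members share arrays and GINS1 is at background, so these shares cannot be compared. At 48 h, scramble replicate 3 was the low one for GINS3 (5.91, others 6.44 to 6.48) and for CDC45 (9.40, others 9.74 to 9.80). Without it, the CDC45 change after si-A2 at 48 h was -1.10 with an adjusted p of 0.0226. At 24 h, si-A1 replicate 2 was low for GINS4 (3.56, others 4.71 to 4.93). For GINS1, whose probe is at background, replicate 4 was the high array of scramble (1.95, others at 1.66) and of si-A2 (2.21, others 1.64 to 1.67) at 24 h.

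The effect of si-A2 differed between the time points for 2 partners of the helicase by the interaction test. CLSPN changed by 4.00 (95% interval 2.90 to 5.11, adjusted p = 0.00254) and MCM5 by 1.18 (0.81 to 1.54, adjusted p = 0.00907), both nearer to scramble at 48 h. Neither value was computed with another treatment of background. The array version changes with the time point, so version and time cannot be told apart.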

How the results depend on the processing

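Every change of a member against scramble kept its direction in all 432 alternative values (16 results), while 30 lost and 12 gained a call. Of 216 values for si-A2 against si-A1, 34 lost and 3 gained a call and 3 changed sign, all of them uncalled differences at 24 h with 1 array left out (GINS4, from -0.17 to 0.26, and GINS3, from -0.28 to 0.11). Of 232 values for the change between time points, 4 gained a call and 2 changed sign (GINS3 after si-A1 at 0.07 with normexp correction, and GINS4 after si-A2 at -0.13 with the low-intensity array included). The background threshold was chosen after the others had been seen: without control spots marked as outliers, CDC45 after si-A2 at 48 h (adjusted p = 0.0116) and GINS3 between siRNAs at 48 h (0.0101) lost their calls. The si-A2 count of 181 at 48 h was 284 with a linear threshold and 112 without those spots.

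Counts of probes called moved more. At 24 h, si-A1 (492), si-A2 (423) and their difference (163) gave 175, 189 and 31 with only the 2 groups compared and 280, 276 and 33 with the interquartile range filter, which tested fewer probes. The replicate block gave 320 for si-A1 and 44 for the difference, and GINS3 after si-A1 lost its call (adjusted p = 0.0108). The well above background filter gave 752 and 417. The difference was 408 with normexp and 404 with no background correction. At 48 h, si-A1 (2725), si-A2 (181) and their difference (642) gave 1482, 91 and 329 with no slide term, 1729, 0 and 235 with the replicate block, 1760, 58 and 352 with the interquartile range filter, and 31, 0 and 0 with the low-intensity array included. With only the 2 groups compared, si-A2 gave 0 and the difference 6. The well above background filter gave 657 and 1228, and no background correction 744 and 1077, while normexp gave 582 and no filter 114 for si-A2. A log2 fold change of at least 1 gave 1088 for si-A1 and 388 for the difference. The share of lower calls after si-A1 was 64.6% in the fit reported, 81.8% with no slide term and 96.8% with the low-intensity array. The interaction counts of 57 (si-A1) and 12 (si-A2) were both 0 with that array. For si-A1 the count was 185 with normexp, 32 with no slide term and 37 with the replicate block, and for si-A2 it was 7 with 75th percentile scaling. With 1 array left out, counts ran from 257 to 430, 268 to 398 and 33 to 339 at 24 h, from 1352 to 2744, 0 to 51 and 47 to 583 at 48 h, and from 8 to 85 and 3 to 25 for the interactions. The cause was not tested. Signal over background limits GINS3 and GINS4 in the siRNA groups and leaves GINS1 unmeasured.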

Other observations

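On the 48 h si-A2 replicate 2 array that was left out, normalised with the other 11, GINS2 was at 4.17, GINS3 at 4.14 and CDC45 at 5.31, and GINS4 at 1.94 was not well above background. The other si-A2 arrays had 5.78 to 6.53, 4.85 to 5.29, 8.11 to 8.75 and 4.54 to 5.29 for these genes under the same normalisation. The si-A1 arrays had 4.32 to 4.86, 2.42 to 3.59, 7.1 to 7.84 and 3.6 to 4.27. The array left out thus lay below every si-A1 array for GINS2, CDC45 and GINS4, and above every one for GINS3.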
